A study of Mus musculus with 20 samples.

Results

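H3K27ac, the acetylation of lysine 27 on histone H3 that marks active promoters and enhancers, was compared between RAW264.7 cells given the BET inhibitor I-BET alone and untreated RAW264.7 cells. RAW264.7 is an established mouse macrophage line that can be driven towards osteoclasts, the cells that resorb bone, by the cytokine RANKL. The comparison took the 1 peak list of cells given I-BET at 500 nM for 4 h, which carries replicate number 3, and the untreated list with the same number. It was defined by the labels and not by measured values, though with earlier results of these data known. It uses 2 of the 10 samples with a peak list among 20 samples in all. These lists hold 13368 peaks with I-BET and 13677 peaks in untreated replicate 3, together 27045 of the 267215 peaks of the whole series. Untreated replicates 1 and 2, with 16364 and 9893 peaks, show how far untreated lists differ from each other. Neither group received RANKL. The labels do not say which I-BET compound was used, name no vehicle for the untreated cells, and do not say whether replicates came from separate cultures. With 1 library on the I-BET side there is no replicate check of any difference, so every value describes these libraries, and no test was run between them.

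BET proteins, among them BRD2 and BRD3, carry bromodomains that bind acetylated lysines on histones, and the family helps to bring the elongation factor P-TEFb (CDK9 with cyclin T) to promoters and enhancers. BET inhibitors fill the bromodomain pocket and displace these readers from chromatin. They do not themselves remove acetyl groups, which are written mainly by the acetyltransferases p300 and CBP and erased by histone deacetylases. HEXIM1, which holds P-TEFb in an inactive complex, is a widely used readout of BET inhibition in mRNA measurements.

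The promoters shown here were chosen after their values were seen, to show what an unshared start site looked like in sequence. Each line gives the 250 bases before the transcription start from RefSeq, GRCm38.p6, written 5′ to 3′ with CG pairs in capitals. Gadd45b (chr10:80929841-80930090 on the plus strand, a stress-induced gene of the GADD45 family), Tmed9 (chr13:55592885-55593134 on the plus strand, a cargo protein of the early secretory pathway) and Coa7 (chr4:108327902-108328151 on the plus strand, an assembly factor of the respiratory chain) had a peak within 500 bp of the start in the 3 untreated lists and not with I-BET.
Gadd45b: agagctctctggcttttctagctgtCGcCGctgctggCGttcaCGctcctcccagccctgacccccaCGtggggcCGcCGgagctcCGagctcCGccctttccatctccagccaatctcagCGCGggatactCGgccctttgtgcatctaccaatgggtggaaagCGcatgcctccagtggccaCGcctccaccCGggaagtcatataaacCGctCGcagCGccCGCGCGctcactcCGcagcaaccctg
Tmed9: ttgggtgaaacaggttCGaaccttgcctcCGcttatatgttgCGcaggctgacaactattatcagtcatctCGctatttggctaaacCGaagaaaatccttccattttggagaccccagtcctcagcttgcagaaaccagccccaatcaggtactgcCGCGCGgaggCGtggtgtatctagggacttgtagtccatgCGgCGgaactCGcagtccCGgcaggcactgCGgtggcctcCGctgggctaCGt
Coa7: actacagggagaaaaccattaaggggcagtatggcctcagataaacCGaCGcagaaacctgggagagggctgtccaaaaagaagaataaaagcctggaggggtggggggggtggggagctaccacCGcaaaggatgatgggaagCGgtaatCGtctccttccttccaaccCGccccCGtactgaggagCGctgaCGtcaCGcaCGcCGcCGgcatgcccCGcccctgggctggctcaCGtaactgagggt
Fam220a (chr5:143548470-143548719 on the plus strand) and Isg15 (chr4:156200819-156201068 on the minus strand, a ubiquitin-like protein induced by interferon) had such a peak with I-BET and in no untreated list.
Fam220a: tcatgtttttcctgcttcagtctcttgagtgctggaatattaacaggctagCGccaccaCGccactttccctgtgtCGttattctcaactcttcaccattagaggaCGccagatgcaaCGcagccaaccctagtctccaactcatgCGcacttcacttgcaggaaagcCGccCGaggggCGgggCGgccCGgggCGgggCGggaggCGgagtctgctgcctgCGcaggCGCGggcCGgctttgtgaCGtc
Isg15: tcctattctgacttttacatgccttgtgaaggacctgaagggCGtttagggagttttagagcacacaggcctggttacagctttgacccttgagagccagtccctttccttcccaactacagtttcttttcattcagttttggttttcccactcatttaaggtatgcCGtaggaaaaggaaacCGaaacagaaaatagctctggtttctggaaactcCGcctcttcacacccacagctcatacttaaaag
Around the Gadd45b start, peaks covered 141, 149 and 704 bp of the 1 kb window in untreated replicates 1, 2 and 3 and 0 bp with I-BET. Around Coa7 they covered 845, 576 and 818 bp and 0 bp with I-BET, and around Tmed9 403, 252 and 484 bp and 0 bp. The Fam220a window was at 0 bp in the 3 untreated lists and at 765 bp with I-BET, and the Isg15 window was at 0 bp in the 3 and at 697 bp. Those 5 promoters differ in base composition: Gadd45b holds 22 CG pairs at 65.2% GC, Fam220a 19 at 60.8%, Tmed9 16 at 55.6%, Coa7 15 at 60.0% and Isg15 4 at 44.8%.

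The 2 replicate 3 lists were close in extent, closer than untreated lists were to each other. Peaks covered 19.58 Mb with I-BET and 19.51 Mb in untreated replicate 3, against 16.05 and 7.79 Mb in untreated replicates 1 and 2. The median peak was 1093 bp wide in both replicate 3 lists, and 676 and 583 bp wide in untreated replicates 1 and 2. The authors' fold enrichment over local background had a median of 2.55 with I-BET and 2.41, 2.62 and 2.46 in untreated replicates 3, 1 and 2. Their −log10 p had a median of 4.14 with I-BET and 4.40, 3.46 and 3.50 in the untreated lists in that order. Peaks with a −log10 q of at least 5 made up 15.4% of the I-BET list, 20.4% of untreated replicate 3, and 4.11% and 1.82% of untreated replicates 1 and 2. So the lists numbered 3 stood together and apart from the other untreated lists, in width and in significance. The lists hold no read counts, and how deeply each library was sequenced is unknown.

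Peaks stood at macrophage markers in all 4 lists. Of 14 macrophage markers, among them Csf1r (the receptor of the macrophage growth factor CSF1), Spi1 (the myeloid factor PU.1) and Adgre1 (F4/80), 12, 9 and 10 had a gene-end peak, meaning one no farther than 1 kb from either end, in untreated replicates 1, 2 and 3, and 11 had one with I-BET. The length covered within 25 kb of their ends summed to 141.1, 67.4 and 147.7 kb in the untreated lists and to 170.5 kb with I-BET. None of the 14 was at 0 in all 4 lists. Of 14 lymphocyte markers 0, 1 and 1 had a gene-end peak in the untreated lists and 0 with I-BET, and their sums were 12.9, 7.69 and 12.7 kb and 13.3 kb with I-BET. Of 14 fibroblast and osteoblast markers, and of 16 markers of tissues not in the culture, 0 had a gene-end peak in each of the 4 lists. The fibroblast and osteoblast sums were 11.8, 8.63 and 14.3 kb and 15.9 kb with I-BET, from 2, 3, 3 and 3 covered markers, and 11 of the 14, Col1a1 and Pdgfra among them, were at 0 in all 4 lists. The sums for other tissues were 4.21, 1.24 and 6.82 kb and 6.52 kb with I-BET, and 9 of those 16, Alb and Myod1 among them, were at 0 in all 4.

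Most acetylated sequence was common to both replicate 3 lists. They shared 15.10 Mb, which was 77.1% of the I-BET list, 77.4% of untreated replicate 3 and 62.9% of the sequence covered by either. Pairs of untreated lists shared less of their joint length, at 45.2% for replicates 1 and 3, 32.9% for 2 and 3 and 31.6% for 1 and 2. I-BET shared 45.1% with untreated replicate 1 and 31.1% with untreated replicate 2, close to the values of untreated replicate 3 against the same lists. Both lists of a pair were then reduced to the shorter covered length, by keeping the peaks of highest −log10 p, and that length differed between pairs. I-BET and untreated replicate 3 shared 62.9% at 19.51 Mb. Untreated replicates 3 and 1 shared 41.3% at 16.05 Mb, and untreated replicates 1 and 2 shared 22.8% at 7.79 Mb. At these lengths and as deposited, the replicate number went with more sharing than the treatment did in these 4 lists. With all 4 lists at 7.79 Mb it did not. I-BET and untreated replicate 3 then shared 21.1%. Untreated replicates 1 and 2 shared 22.8%, 2 and 3 shared 22.0%, and 1 and 3 shared 17.7%. What the libraries numbered 3 have in common beyond the number is not stated in the labels.

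**Figure D1:**
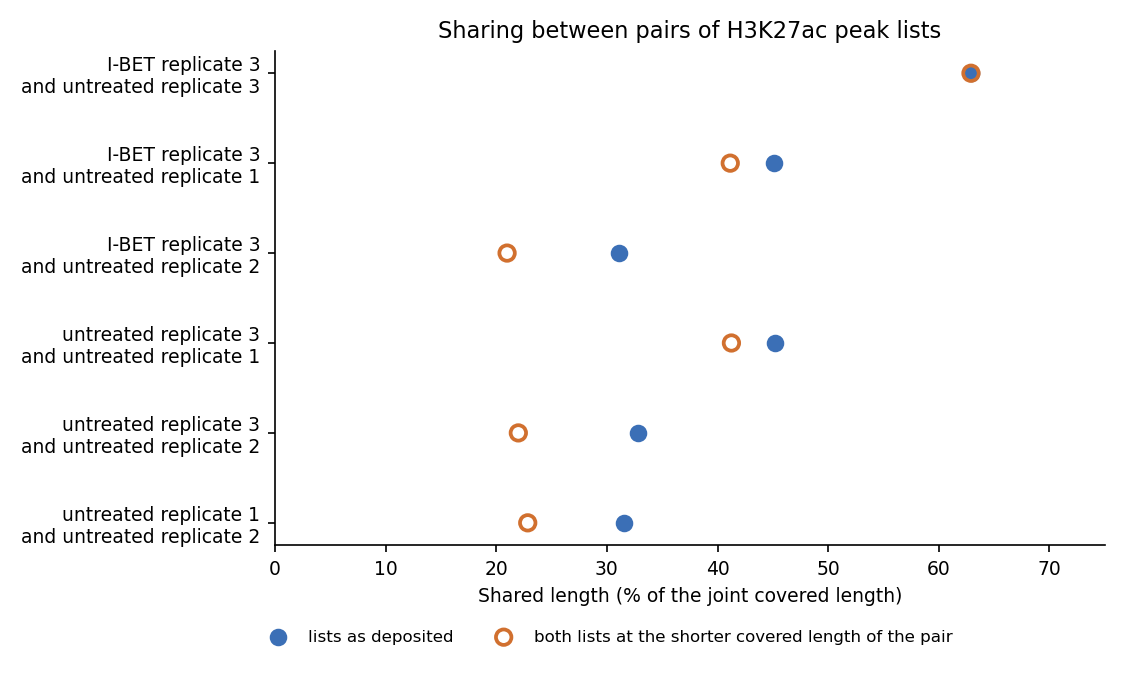
Shared length as a percent of the joint covered length for the 6 pairs of lists, as deposited (filled points) and with both lists reduced to the shorter covered length of the pair (open points). The I-BET and untreated replicate 3 pair lies at 62.9% in both, above the 3 pairs of untreated lists.

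The peaks that one list held and the other did not were narrow. Of the I-BET peaks, 1767 (13.2%) touched no peak of untreated replicate 3, and of the untreated replicate 3 peaks 2041 (14.9%) touched no I-BET peak. Between untreated replicates 1 and 3 the same shares were 27.9% and 23.7%. Unshared peaks had a median width of 574 bp with I-BET and 535 bp in untreated replicate 3, against 1206 and 1210 bp for shared ones. Unshared peaks were only a little less significant, with a median −log10 p of 3.88 against 4.17 for shared I-BET peaks and of 4.17 against 4.43 in untreated replicate 3. Across the 11157 pairs of peaks that touched each other one to one, width had a Spearman correlation of 0.76 and −log10 p of 0.07. The pairs share the genome position and the caller, and for untreated pairs of lists the corresponding correlations ran from 0.46 to 0.54 and from 0.02 to 0.06. The width of a peak was thus repeated between lists and its rank by p was not, which bears on every setting below that keeps only the most significant peaks.

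**Figure D2:**
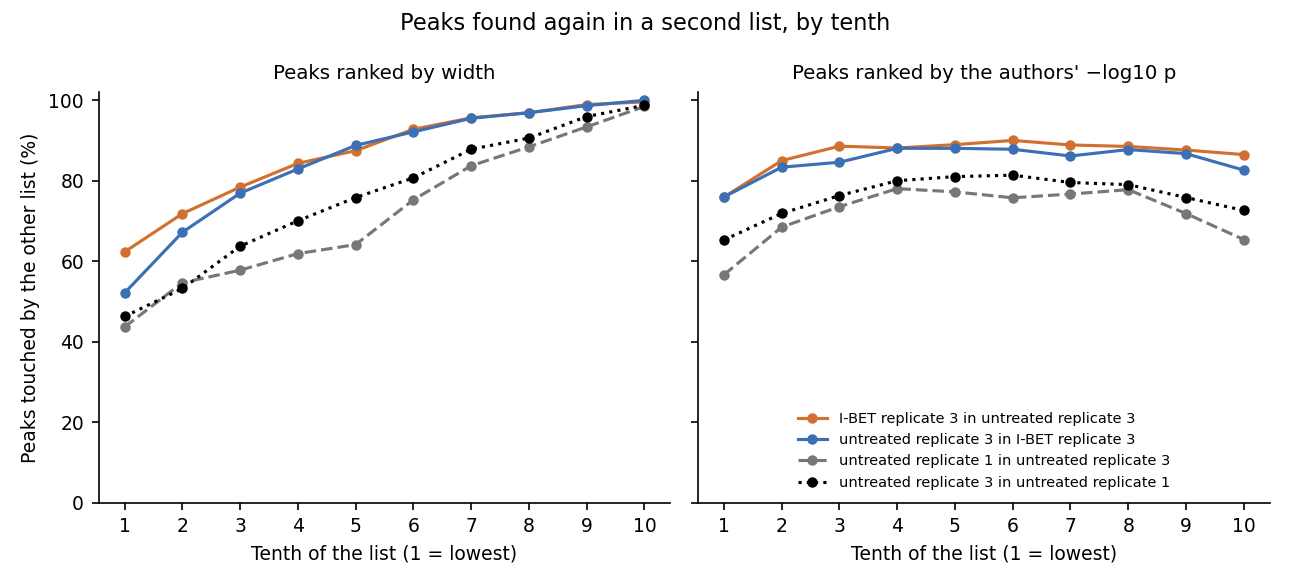
Percent of peaks touched by a second list, for 10 equal groups of the first list ranked by width (left) or by the authors' −log10 p (right). By width the share climbs in all 4 lines to nearly 100% in the widest group, while by −log10 p it is highest in the middle groups and lower in the first and last.

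Where the unshared peaks lay differed between the 2 lists. Gene ends took up 44.5% of the peaks found in untreated replicate 3 and not with I-BET (908 of 2041, 95% Wilson interval 42.3 to 46.7%) and 19.0% of those found with I-BET and not in untreated replicate 3 (336 of 1767, 17.3 to 20.9%). These intervals cover counting error only. Of the unshared I-BET peaks 52.3% lay inside genes and 28.6% between genes. Shared peaks were at gene ends in 53.4% of cases in both lists. The same skew appeared without any inhibitor: 49.1% of untreated replicate 3 peaks not in untreated replicate 1 were at gene ends, against 16.3% of untreated replicate 1 peaks not in replicate 3. Among one-to-one pairs, the I-BET peak was the wider one in 46.3% of 6042 pairs at gene ends (median width 1192 bp untreated, 1144 bp with I-BET) and in 54.0% of 3127 pairs inside genes (1218 bp untreated, 1275 bp with I-BET). The lean towards gene ends in untreated replicate 3 and towards gene bodies with I-BET was therefore small among shared peaks and larger among unshared ones.

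**Figure D3:**
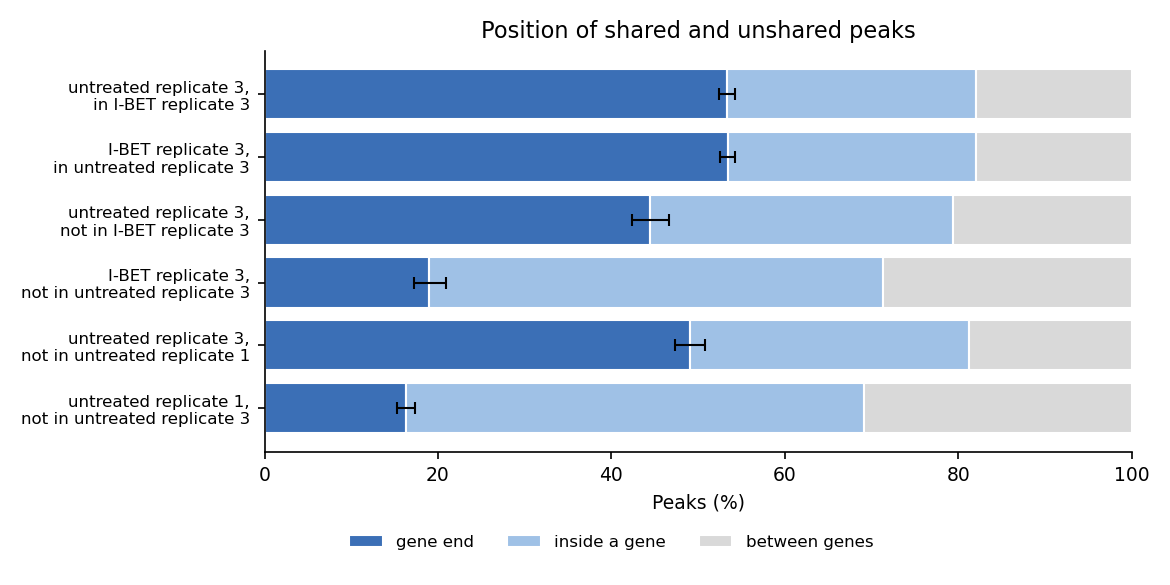
Share of peaks at gene ends (within 1 kb, with 95% Wilson intervals), inside genes and between genes, for shared and unshared peaks. I-BET peaks absent from untreated replicate 3 were at gene ends in 19.0%, and untreated replicate 1 peaks absent from untreated replicate 3 in 16.3%.

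Untreated replicates 1 and 2, which played no part in finding these peaks, seldom both held them. Both held 327 (16.0%) of the untreated replicate 3 peaks absent with I-BET, 1 of the 2 held 772 and neither held 942. Of the I-BET peaks absent from untreated replicate 3, both held 168 (9.51%), 1 held 717 and neither held 882. This imbalance turned on untreated replicate 2. Without it the share held was 2.25 percentage points higher for the I-BET peaks, and without replicate 1 it was 12.5 points lower. Of the 327, 195 were at gene ends, and of the 168, 60.

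A set of regions that neither replicate 3 list had chosen gave a smaller difference. Of the 7834 untreated replicate 1 peaks that untreated replicate 2 also touched, untreated replicate 3 held 93.8% (Wilson interval 93.3 to 94.3%) and I-BET 91.6% (91.0 to 92.2%). At the 4407 regions at gene ends the shares were 96.2% and 92.9%, and 225 regions were in untreated replicate 3 without I-BET against 81 the other way. Inside genes they were 92.2% and 90.9%, and between genes 88.7% and 88.4%, with intervals that overlap. These regions are defined by untreated lists, and only 1 untreated and 1 I-BET library were compared on them, so library and treatment cannot be told apart.

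Fewer start sites were held with I-BET than in untreated replicate 3, and more than in untreated replicates 1 and 2. Of 21262 start sites of protein-coding genes, peaks within 500 bp were found at 6663, 5576 and 8145 in untreated replicates 1, 2 and 3 and at 7466 with I-BET. All 4 lists held 4383. The 3 untreated lists held 231 sites (of 204 genes, 1.09% of all sites) that I-BET did not, while I-BET and untreated replicates 1 and 2 held 67 sites (of 60 genes, 0.315%) that untreated replicate 3 did not. Without untreated replicate 1 these counts were 354 and 95, and without untreated replicate 2 they were 482 and 162. The count was therefore higher on the untreated side under both, but it moved by over 1.5 times. I-BET alone among the 4 held 155 sites (0.729%) and untreated replicate 3 alone held 419 (1.97%). Of the 231 sites, 227 were held by the list of cells given RANKL with replicate number 3 and 187 by that of cells given RANKL with I-BET. Those were 98.3% and 81.0%. Of the 67 sites, which I-BET held and untreated replicate 3 did not, the same 2 lists held 61 (91.0%) and 50 (74.6%). A lower share in the list with both RANKL and I-BET was thus not particular to sites absent with I-BET. Of the 4383 sites held by all 4, these lists held 4382 and 4303.

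In base composition, sites absent with I-BET were close to those held throughout. The share with a motif differed from those held throughout, but came near that of sites missing from other lists. The median GC content of the 250 bases before the start was 60.4% at the 231 sites and 61.2% at the 4383, with 16 and 18 CG pairs. At sites held by none of the 4 lists it was 50.8%, with 4 CG pairs. The GC box (GGGCGG, either strand) was present in 71.4% of the 231, in 61.3% of the 4383 and in 42.6% of all 21262. The ETS motif CCGGAAGT, on either strand, was present in 4.33% of the 231 (10 sites), 8.85% of the 4383 and 3.79% of all. At the 67 sites held with I-BET and by untreated replicates 1 and 2, not replicate 3, the GC box stood in 65.7% and the ETS motif in 4.48%. At the 419 sites held by untreated replicate 3 alone they stood in 69.2% and 5.73%. These motif shares were thus not particular to the 231 sites. At the 155 sites held with I-BET and in no untreated list, GC was 58.0%, the GC box stood in 54.8% and the ETS motif in 4.52%. These are matches of letters and not shown binding sites. Among list genes, the start sites absent with I-BET alone belonged to Egr2 and Mafk (AP-1 and immediate early list) and to Bbc3 and Bcl2l11, which encode the apoptosis inducers PUMA and BIM. Those held with I-BET and in no untreated list belonged to Mga (a MAX partner), Isg15 and Ostm1 (a subunit of the osteoclast chloride transporter). Mga went the other way by gene-end peaks, with one in untreated replicate 3 and none with I-BET. Nfkbib, an inhibitor of NF-kB, and the deacetylase gene Sirt2 had one with I-BET and in untreated replicates 1 and 2, not in replicate 3.

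The strongest untreated replicate 3 peaks that untreated replicates 1 and 2 touched and I-BET did not were short, and 6 of the 10 lay at gene ends. The first, 531 bp wide at chr12:85219566-85220096, lay at the end of Eif2b2, which encodes a subunit of the translation factor eIF2B, and the authors gave it a fold of 6.01 and a −log10 p of 17.4. The same site had a −log10 p of 5.13 and 3.64 in untreated replicates 1 and 2. Next came a peak at Fam234a (−log10 p 16.4) and one at a gene end that touched both Adprm and Sco1 (15.3). A 245 bp peak inside Myof, a gene of membrane repair, had 14.7. Peaks at Coa7 and Tmed9, whose promoters are shown above, had 14.5 and 13.4. A peak inside Zfp472 had 12.3, one 40409 bp from Ier5 (an immediate early gene) 12.2, one at 1810024B03Rik and Snrnp200 (a spliceosome helicase) 12.1, and one 2197 bp from Ptms 11.6. In the list of cells given RANKL with I-BET and numbered 3, 7 of these 10 were present, and those at Eif2b2, Myof and Ier5 were not. In the RANKL list with that number 8 were present, without those at Myof and Ier5.

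The strongest I-BET peaks touched by no untreated list lay at gene ends in 3 of 10 cases. The highest −log10 p of the I-BET list, 35.6 at a fold of 11.4, belonged to a 514 bp peak at chr9:70729211-70729724 inside Adam10, a membrane protease that sheds surface proteins, 50229 bp from its start. It was absent from the RANKL lists and the RANKL with I-BET lists with replicate numbers 1 and 3. So was a 1091 bp peak inside Gbe1, the glycogen branching enzyme, at a −log10 p of 23.0, and a 1354 bp peak 489030 bp from the nearest gene, Usp25, at 14.9. Peaks at an end of Gm3336 (20.0), inside Hemk1 (18.3), inside Arhgap22 (14.4), at Fam220a (14.4), near Arhgap15 (14.4), at an end of Ggh (14.4) and inside Gtdc1 (14.0) completed the 10. Of these 10, 1, the peak inside Gtdc1, was also present in the RANKL with I-BET list of replicate 3. The RANKL with I-BET list of replicate 1 held those inside Hemk1, Arhgap22 and Gtdc1. The RANKL lists of replicates 1 and 3, made without inhibitor, held 7 and 4. Of all 1767 I-BET peaks absent from untreated replicate 3, 46.1% were in the RANKL with I-BET list of replicate 3 and 65.4% in the RANKL list of replicate 3.

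Covered length around genes gave a measure for each gene: the summed length of peaks no farther than 25 kb from an end of the gene, with both lists at the shorter covered length, as log2 of the length plus 500 bp. A gene was counted as higher or lower at a difference of at least 1 on this scale, which is a size and not a test. Of 10737 protein-coding genes with enough coverage, 167 were higher with I-BET (1.56%) and 348 lower (3.24%), together 515 (4.80%). The median difference was -0.03 with an SD across genes of 0.48. With each pair at its own shorter length, untreated replicate 3 against untreated replicate 1 gave 1212 higher and 1490 lower genes (25.2%). Untreated replicates 1 and 2 differed at 39.6% of genes. At these lengths, which differ between pairs, fewer genes passed this size between I-BET and untreated replicate 3 than between any 2 untreated lists. With all 4 lists at 7.79 Mb this order was not kept. I-BET against untreated replicate 3 then gave 2519 higher and 2631 lower of the same 10737 genes. Untreated replicate 3 gave 2501 and 2582 against replicate 1, and 1619 and 3413 against replicate 2. Untreated replicates 1 and 2 gave 1336 and 2913. As deposited, 127 of the 167 lay above all 3 untreated lists with I-BET and 156 of the 348 below all 3. Over all genes tested I-BET was above all 3 untreated lists at 36.1% and below all 3 at 5.42%, in a list that covered more sequence than each of them. Counted by gene-end peaks over all 21883 protein-coding genes, 997 (4.56%) had one in untreated replicate 3 and not with I-BET, and 366 (1.67%) the reverse.

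Of the 348 lower genes, 52 lay below all 3 untreated lists at the shortest covered length of the 4, 271 within their range and 25 above it. The share of all tested genes on each side at that length is not given here. The 10 largest of the 52 included 5 windows listed at 0 with I-BET. Around Zcchc14, peaks covered 2.19, 0.761 and 3.76 kb in untreated lists 1, 2 and 3 and 0.258 kb with I-BET (log2 difference -2.49). Around Serpinb6a, a serpin protease inhibitor, they covered 1.34, 0.859 and 1.90 kb and 0 kb with I-BET. Around Gadd45b the lengths were 1.00, 0.722 and 1.79 kb and 0 kb with I-BET. That I-BET lay below the untreated lists follows from how the genes were picked. The other 7 were Sacm1l, Tmem138, Rab11fip1, Cenpk (a kinetochore protein), Cry2 (a repressor of the circadian clock), Cd248 and Klc4. Of those, Rab11fip1, Cenpk and Cd248 were at 0 kb with I-BET. Without reducing the I-BET list, Tmem138 moved from -2.10 to -0.65, which does not pass the size, and Sacm1l from -2.16 to -1.27, and both then lay within the untreated range. In the RANKL with I-BET list of replicate 3, Gadd45b had 2.15 kb and Klc4 4.76 kb, while Cry2 had 0.134 kb.

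Of the 167 higher genes, 62 lay above all 3 untreated lists at the shortest covered length, 94 within their range and 11 below it. The 10 largest of the 62 had little or no coverage in untreated replicates 2 and 3. Niban1, a stress-response gene, had 0.732, 0 and 0 kb in untreated lists 1, 2 and 3 and 2.23 kb with I-BET. Rpia, an enzyme of the pentose phosphate pathway, had 0.656, 0 and 0 kb and 2.15 kb with I-BET. Arhgap31, a GTPase-activating protein, had 0.334, 0 and 0 kb and 1.98 kb with I-BET. That I-BET lay above the untreated lists follows from how the genes were picked, and untreated replicate 1 held part of the same windows. The others included Gm2511 (1.85 kb in untreated replicate 1, 2.04 kb with I-BET), Kazn, Sh3bgrl, Slc16a7 (a monocarboxylate transporter), Txk (a kinase of T cells) and Coa4. Of the 10, 9 had a covered window in the RANKL with I-BET list of replicate 3, and the window of Txk was listed at 0 there. All 10 were also covered in the RANKL list of replicate 3, made without inhibitor, from 0.262 kb (Txk) to 2.395 kb (Slc16a7). Windows of neighbouring genes overlap, so some of these values may describe the same peak for 2 genes.

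Of 20 genes of the BET and elongation list 19 were tested, and 15 lay below 0 and 4 above, with a median of -0.25. Over all 10737 genes 5822 lay below 0 and 4888 above, with a median of -0.03. By size, 0 were higher and 1, Brd3, was lower. Over all genes tested 4.80% passed the size, a share to set beside the counts of this list and of those below. Brd3 had 1.81, 1.02 and 3.21 kb in untreated lists 1, 2 and 3 and 1.09 kb with I-BET (log2 difference -1.22), which was below untreated replicate 3 and within the range of the 3. Brd2 had 6.21, 4.43 and 6.68 kb and 6.64 kb with I-BET. Hexim1 had 5.22, 3.59 and 9.65 kb and 5.45 kb with I-BET (log2 difference -0.77), so its coverage was below that of untreated replicate 3 and close to that of replicate 1. Cdk9 had 2.73, 2.20 and 4.60 kb and 6.07 kb with I-BET, and Ccnt1, encoding its cyclin, 4.97, 2.70 and 5.58 kb and 6.49 kb, both above the 3 untreated lists as deposited. At the shortest covered length Cdk9 stayed above and Ccnt1 lay within the range, while Brd2, Brd3 and Hexim1 lay below it. Brd2 was then at 0 kb with I-BET against 3.55, 4.43 and 6.68 kb untreated, and Brd3 at 0 kb against 0.409, 1.02 and 1.67 kb. Hexim1 was at 2.55 kb against 3.73, 3.59 and 4.455 kb. All 18 members with a gene-end peak in untreated replicate 3 kept one with I-BET. Per Mb of covered sequence, the list took 3.62, 5.31 and 4.26 kb in untreated lists 1, 2 and 3 and 3.77 kb with I-BET, within the untreated range.

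MYC is the transcription factor most often followed under BET inhibition. No peak lay within 25 kb of either end of Myc in the 3 untreated lists or with I-BET, so these lists give no difference for it. Its partner Max had 0.758, 0 and 1.77 kb in untreated lists 1, 2 and 3 and 1.81 kb with I-BET. Mxd1, which competes with MYC for MAX, had 0.290, 0.180 and 0 kb and 0 kb with I-BET. Of the 24 tested genes of the MYC network and ribosome biogenesis, 0 were higher and 0 lower by size, with a median of 0.03.

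The AP-1 and immediate early genes had 25 tested members, with 0 higher, 1 lower and a median of 0.00. The lower member was Mafk, a small MAF partner, with 1.43, 0.806 and 2.18 kb in untreated lists 1, 2 and 3 and 0.494 kb with I-BET (log2 difference -1.43). It lay below all 3 untreated lists. Fos had 11.8, 12.6 and 12.5 kb and 11.0 kb with I-BET, just below the untreated values. Junb had 12.4, 6.76 and 15.0 kb and 15.0 kb with I-BET, Jun 3.72, 3.82 and 3.67 kb and 4.27 kb, and Fosl2 1.88, 3.34 and 3.94 kb and 2.31 kb. Per Mb of covered sequence the list took 9.55, 16.3 and 7.95 kb in the untreated lists and 7.82 kb with I-BET, just under the lowest of them.

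Of 24 tested NF-kB pathway genes, 17 lay below 0 and 7 above, with a median of -0.20 against -0.03 over all genes, of which 5822 of 10737 lay below 0. By size 0 were higher and 1 lower. The lower one was Tnfaip3, which encodes A20, a feedback inhibitor, with 0.694, 0.208 and 1.81 kb in untreated lists 1, 2 and 3 and 0.532 kb with I-BET (log2 difference -1.16). Nfkbia, encoding the inhibitor IkBα, had 7.20, 0.913 and 6.15 kb and 3.69 kb with I-BET. Both I-BET values lay within the untreated range. Gene-end peaks of Relb, Cyld and Tnfaip3 were in untreated replicate 3 and not with I-BET, and that of Nfkbib the reverse.

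Of 17 tested inflammatory cytokine and chemokine genes, 10 lay above 0 and 7 below, with a median of 0.30, and by size 1 was higher and 2 were lower. Tnf had 21.2, 7.52 and 15.3 kb in untreated lists 1, 2 and 3 and 22.4 kb with I-BET. Ccl3 and Ccl4, neighbours that share their window, had 6.54, 1.96 and 4.85 kb and 8.11 kb with I-BET. In both windows I-BET lay above the 3 untreated lists as deposited. At the shortest covered length Tnf lay within their range, and Ccl3 and Ccl4 were at 0 kb with I-BET against 0.168, 1.96 and 1.29 kb. Il1b, higher by size at 1.12, had 1.46, 0.173 and 0.393 kb and 1.44 kb with I-BET, a value below that of untreated replicate 1. Il10 (log2 difference -1.48) had 0, 0 and 1.75 kb and 0.308 kb with I-BET, and Csf3 (-1.20), encoding the growth factor G-CSF, 1.25, 0.154 and 3.51 kb and 1.25 kb. Il1rn had 0.391, 0.707 and 0 kb and 0 kb with I-BET. In the interferon list 16 genes were tested and 1, Irf7, a master factor of type I interferon, was higher, with 0, 0.226 and 0.314 kb and 1.49 kb with I-BET (log2 difference 1.29), above all 3.

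Of 27 tested macrophage identity genes, 21 lay above 0 and 6 below, with a median of 0.20, where 4888 of all 10737 genes lay above 0, and 16 of the 27 lay above all 3 untreated lists as deposited, where all genes stood at 36.1%. By size 1, the Fc receptor gene Fcgr3, was higher and 0 were lower. Fcgr3 had 2.17, 0 and 0.271 kb in untreated lists 1, 2 and 3 and 1.45 kb with I-BET (log2 difference 1.34), so replicate 1 was higher still. Spi1 had 15.3, 10.9 and 18.3 kb and 21.4 kb with I-BET. Csf1r had 12.2, 7.74 and 15.0 kb and 18.8 kb with I-BET. For both of these lineage genes I-BET was above the 3 untreated lists as deposited. At the shortest covered length Csf1r was still above them, at 18.4 kb, while Spi1 was below them, with 13.6, 10.9 and 15.4 kb untreated and 3.72 kb with I-BET. Irf8 had 5.75, 1.22 and 2.28 kb and 3.67 kb with I-BET, and Cebpb 3.76, 0.354 and 3.92 kb and 3.30 kb, both within the range. Per Mb of covered sequence the list took 13.4, 13.0 and 11.5 kb in untreated lists 1, 2 and 3 and 13.4 kb with I-BET. On that scale I-BET was level with untreated replicate 1, and untreated replicate 3 was the lowest.

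**Figure D4:**
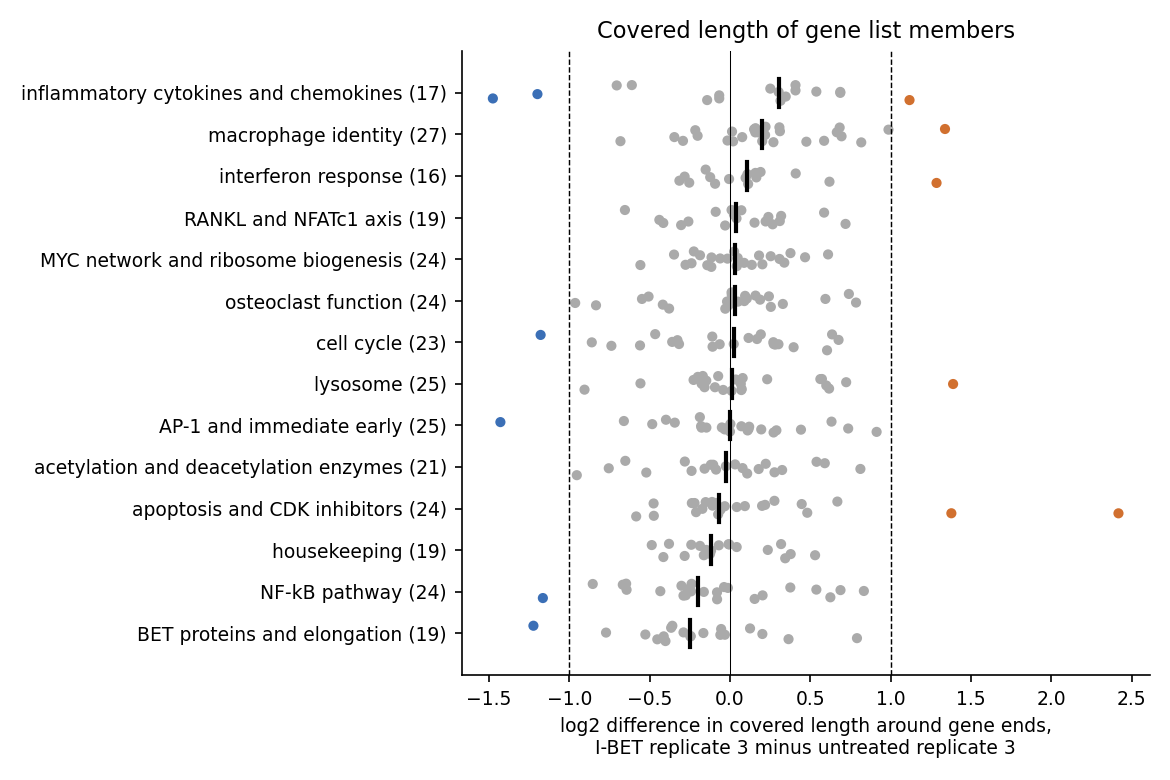
Log2 difference in covered length around gene ends, I-BET replicate 3 minus untreated replicate 3, for each tested member of 14 gene lists (number of members in brackets). Bars are medians, dashed lines the size of 1 that counts as higher (orange) or lower (blue), and 12 of the members pass it. Over all genes tested 4.80% pass it.

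Genes of the osteoclast programme, which RANKL was not there to induce, showed no member past the size. It held for 19 tested genes of the RANKL and NFATc1 axis (median 0.04) and for 24 of osteoclast function (median 0.03). Over all 10737 genes 4.80% passed the size. At that share a list this short may hold none, so the counts do not set these genes apart. Nfatc1, the master factor of osteoclasts, had 6.69, 4.53 and 11.9 kb in untreated lists 1, 2 and 3 and 9.84 kb with I-BET. Ctsk, encoding the collagen-degrading cathepsin K, had 15.8, 8.59 and 14.1 kb and 13.8 kb, and Acp5, encoding the osteoclast phosphatase TRAP, 1.26, 0.719 and 2.20 kb and 0.886 kb. As deposited, all 3 I-BET values lay within the untreated range. At the shortest covered length only Acp5 did. Nfatc1 was then below it, at 0 kb with I-BET against 1.59, 4.53 and 1.29 kb untreated. Ctsk was above it, at 12.5 kb against 6.72, 8.59 and 12.2 kb. A gene-end peak of Nfatc1 was present in untreated replicate 3 only, and was absent from untreated replicates 1 and 2 as well as with I-BET.

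Apoptosis and CDK inhibitor genes held the largest single difference of the lists. Of 24 tested, 2 were higher and 0 lower, with a median of -0.07. Pmaip1, which encodes the death inducer NOXA, had 5.73, 1.59 and 0.947 kb in untreated lists 1, 2 and 3 and 7.24 kb with I-BET (log2 difference 2.42). Bcl2l1, which encodes the survival protein BCL-XL, had 3.59, 0.274 and 1.84 kb and 5.57 kb with I-BET (log2 difference 1.38). Both lay above the 3 untreated lists as deposited, though the untreated values themselves spanned several kb. Cdkn1a, encoding the CDK inhibitor p21, had 7.23, 4.64 and 7.43 kb and 10.3 kb with I-BET, also above all 3. At the shortest covered length Bcl2l1 stayed above, Pmaip1 lay within the range, and Cdkn1a was below it, with 6.96, 4.64 and 0.413 kb untreated and 0 kb with I-BET. Bcl2 had 0.802, 0.189 and 1.19 kb and 1.09 kb with I-BET, and Cdk6 6.0, 1.78 and 10.4 kb and 7.99 kb, within the range as deposited. At the shortest covered length Bcl2 was still within it. Cdk6 was below it, at 1.65 kb with I-BET against 3.56, 1.78 and 7.99 kb untreated. In the other lists Mcoln1, a lysosomal calcium channel gene, was higher (0.326, 0.901 and 0.671 kb and 2.57 kb with I-BET) and Ccne1, encoding cyclin E1, lower (0.505, 0 and 1.27 kb and 0.280 kb). None of the 21 tested genes for acetylation and deacetylation enzymes passed the size (median -0.03), nor did any of the 19 housekeeping genes (median -0.12). Actb had 6.71, 5.16 and 11.4 kb and 9.91 kb with I-BET, and Gapdh 3.29, 4.80 and 4.91 kb and 3.95 kb. Of 5 tested lymphocyte markers, Cd4 and Cd3g were higher by size, at 0.789 and 1.55 kb with I-BET, but untreated replicate 1 had more, at 1.47 and 1.63 kb.

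The 200 widest acetylated stretches of untreated replicates 1 and 2, joined across gaps of up to 12 kb, were covered to a similar extent with I-BET. They ran from 28.0 to 77.8 kb, and peaks covered 27.3, 13.2 and 27.5% of their length in untreated replicates 1, 2 and 3 and 29.0% with I-BET. Coverage was higher with I-BET than in untreated replicate 3 in 114 domains, lower in 82 and equal in 4. It was at least 10 percentage points higher in 15 and lower in 6, while untreated replicates 3 and 1 differed by that much in 46. In the widest domain, at Fos (chr12:85420454-85498275), 16.7, 20.0 and 25.6% was covered in untreated replicates 1, 2 and 3 and 22.8% with I-BET. The next widest, at Plekha2, Zfp710, the Tesk1 and Cd72 cluster, and Lrp1 with Stat6, had 39.9, 63.1, 28.0 and 45.6% with I-BET, each above the 3 untreated lists.

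The 5 domains most above untreated replicate 3 were 16.3 to 21.2 points higher with I-BET, and the 5 most below differed by -12.3 to -16.6 points. Coverage at Lgals3, encoding the macrophage lectin galectin-3, was 52.8, 36.1 and 30.7% in untreated replicates 1, 2 and 3 and 51.9% with I-BET, 21.2 points above replicate 3 and just below replicate 1. At Slco4a1 it was 72.1, 15.8 and 64.0% and 84.3% with I-BET, and at Lcp1, encoding the actin bundler L-plastin, 38.2, 22.1 and 48.9% and 69.2%. Cx3cr1, the fractalkine receptor, had 40.9, 7.42 and 53.7% and 70.1%, and Apbb1ip, an adaptor of integrin activation, 23.0, 0 and 15.6% and 32.0%. On the lower side Clic4 had 23.7, 9.74 and 43.1% and 26.6% with I-BET, and Lpp 25.3, 18.5 and 34.0% and 18.4%. A stretch with no gene at chr16:25008074-25062709 had 44.9, 23.8 and 66.5% and 51.0%. Pkd1l2 had 25.5, 18.7 and 49.2% and 34.0%, and Nfatc2, a relative of Nfatc1, 21.2, 3.95 and 35.8% and 23.4%. Of the 5 lower domains only Lpp lay below all 3 untreated lists with I-BET, while 4 of the 5 higher ones lay above all 3.

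**Figure D5:**
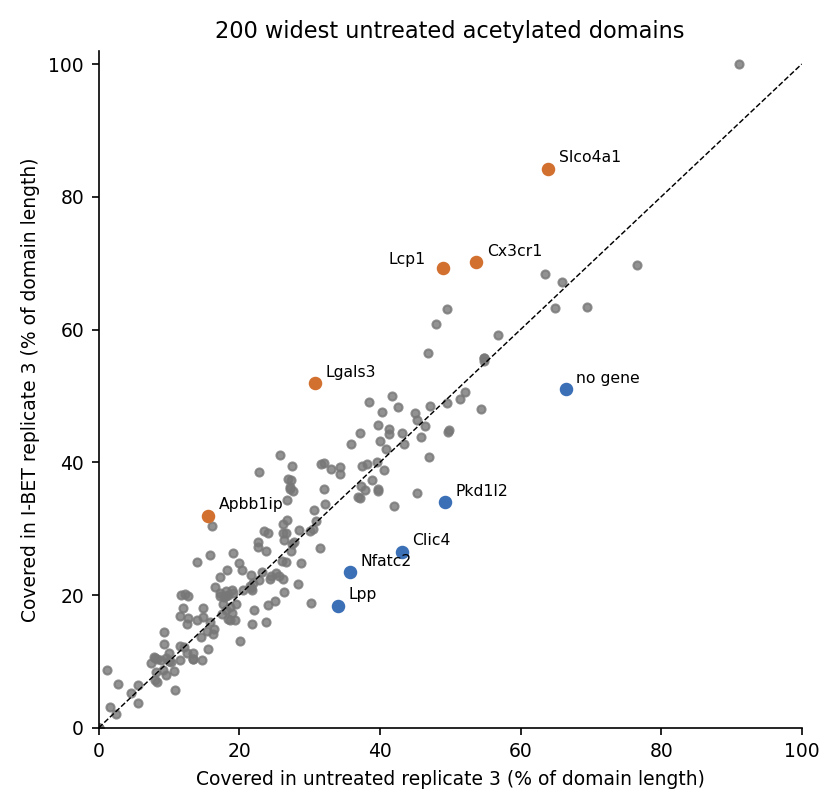
Percent of each of the 200 domains covered by peaks in untreated replicate 3 (x axis) and with I-BET (y axis), with equality as the dashed line. The 5 domains most above (orange) and most below (blue) the line are named, and coverage was higher with I-BET in 114 of the 200 and lower in 82.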

How the data were processed

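H3K27ac was measured by ChIP-seq in RAW264.7 cells fixed with 1% formaldehyde for 15 min and sequenced as 50 bp single reads. Per the submitters' processing notes the authors used FastQC, Bowtie2, MACS2 and mm10 (GRCm38). Versions, thresholds and the use of the inputs are not given in the sources used here, and the inputs were not analysed here. The authors deposited broad-peak tables without counts. The deposited score is a whole number, the deposited fold is a linear ratio over the caller's local background, and the authors' p and q are on a −log10 scale. All 4 columns are the authors'. Ranking by p or fold was done inside 1 list at a time. Medians of fold and p, shares by q and the rank correlation of p were also compared between lists.

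The scripts used Python 3.11.15, numpy 2.4.6, pandas 2.3.3 and matplotlib 3.10.9. A peak was shared if it overlapped the other list by at least 1 bp. Lists were reduced to the shorter covered length of the 2 (19.51 Mb) by keeping the peaks of highest −log10 p. Genes were the 21883 protein-coding genes of RefSeq GRCm38.p6, the authors' build. Those with a mean of at least 500 bp over the 4 lists were tested for size, and a gene end is either end of a gene. Promoter strands and start sites came from the RefSeq promoter table. Group names and numbers follow the labels.

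The comparison, its gene lists and the rule for named genes were chosen with earlier results of these data known. The rule took the 10 strongest peaks of untreated replicate 3 that untreated replicates 1 and 2 touch and I-BET does not, the 10 strongest I-BET peaks in no untreated list, the 10 largest differences each way, list members past the size, 33 genes always given, and the 5 widest and most different domains. Some genes it takes are not reported here. The start-site counts and their alternatives were added after seeing the data. On a list with planted changes, 200 of 200 losses and 200 of 200 gains were found.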

Additional observations from a re-analysis of the deposited data

How the results depend on the processing

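No paired analysis was possible because the groups share 1 replicate number and no result comes from a test. With both replicate 3 lists at the shorter covered length, ranked by −log10 p or by fold, the results kept their direction and size. With the lists as deposited, 59 of 60 named genes did so, and Tmem138 moved from -2.10 to -0.65. With all 4 lists at the shortest covered length, the shared length fell to 21.1% of the joint length, against 17.7 to 22.8% for untreated pairs. With a −log10 q of at least 5 it fell to 9.15%, against 0.476 to 1.77% for untreated pairs. Under these 2 settings the I-BET minus untreated difference in held regions was 0.16 and 16.7 percentage points (as deposited -2.22), in support of unshared peaks 0.30 and 0.18 (-6.51) and in the gene-end share -3.50 and -3.94 (-25.5). At that length 1994 genes had a gene-end peak in untreated replicate 3 alone and 1778 with I-BET alone. With the coverage filter applied to the reduced lists, 2037 and 2113 genes were higher and lower. At a −log10 q of at least 5, 886 genes had one with I-BET alone, the difference in peaks not touched was -5.61 points (-1.70) and the domain difference -1.76 points (1.45). At least 50% coverage of a peak gave -3.05 for support and -3.96 for held regions. A pseudocount of 200 or 1000 bp gave 293 or 86 higher and 527 or 169 lower genes. No filter gave 300 and 698, and a mean of at least 1000 bp gave 86 and 135. With untreated replicate 1 or 2 as the partner, the shared length was from 31.1 to 45.1%, the difference in peaks not touched from -5.25 to 29.7 points, and higher genes from 1112 to 1645 and lower from 1493 to 3317. Without untreated replicate 1 or 2, support ran from -12.5 to 2.25 points, start sites absent with I-BET from 354 to 482 and those absent from untreated replicate 3 from 95 to 162. The single genes that changed sign with untreated replicate 1 or 2 as the partner were Il1b (-0.015 and -0.43), Gm2511 (-1.08 with replicate 1), Il10 (0.69 with both), Fcgr3 (-0.74 with replicate 1), Ccne1 (0.64 with replicate 2), Cd4 (-1.98 and -1.79) and Cd3g (-1.42 and -0.14, and -0.33 at the shortest length). The cause was not tested. The depth of the libraries is unknown, and with 1 I-BET library the treatment and the library cannot be told apart.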
